A study of Mus musculus with 38 samples.

Results

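The 10 genes described here, Gata2, Runx1, Lmo2, Lyl1, Tal1, Erg, Fli1, Mecom, Hhex and Spi1, encode transcription factors that specify and maintain blood stem and progenitor cells. They were taken as every probe set whose annotation carries exactly 1 of these symbols. This gave 20 probe sets of the 45101 on the array: 6 for Runx1, 3 for Mecom, 2 each for Gata2, Erg and Fli1, and 1 each for Lmo2, Lyl1, Tal1, Hhex and Spi1. Testing required a signal over the array's own median on 4 or more arrays, which 18 of the 20 had, among 29004 probe sets tested in all. Erg 1425370_a_at and Mecom 1423011_at did not pass and are described without a test.

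The 38 samples are RNA of whole bone marrow, each from 1 mouse and hybridised to 1 one-colour Affymetrix array. In 34 mice leukaemia had been started by a retrovirus carrying an MLL fusion oncogene, in which the front part of the histone methyltransferase MLL (mouse gene Kmt2a) is joined to a partner protein. Marrow progenitors bearing the c-kit receptor were infected and transplanted into lethally irradiated C57BL/6 mice of either sex, and marrow was taken when the leukaemic mice were killed. There were 9 MLL-AF1p, 8 MLL-AF10, 5 MLL-GAS7, 5 MLL-AF9 and 7 MLL-ENL mice, named here by cohort and label number (MLL-AF9_305), and 4 marrows of wild-type C57BL/6 mice were the normal samples. All cells were cryopreserved before RNA extraction, the sex and age of single mice are not used here, and the labels mention neither virus nor transplantation for the normal mice. A leukaemic marrow still holds whatever host cells remain beside the leukaemia. Fewer cells of a type and less RNA per cell cannot be told apart in such bulk samples, here or in any result below.

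The core factors act as interlocking complexes on shared enhancers. Tal1 and Lyl1 are related basic helix-loop-helix proteins that bind DNA together with an E protein, and Lmo2 bridges such a pair to GATA factors through the adaptor Ldb1. Erg, Fli1 and Spi1 (PU.1) belong to the ETS family, Runx1 binds DNA with its partner Cbfb, Hhex is a homeobox protein, and Mecom encodes the zinc-finger protein Evi1. Runx1, Gata2, Tal1, Lmo2 and Mecom are needed for blood stem cells to form or persist, Tal1 is also needed for red cells and platelets, and Spi1 drives the macrophage and granulocyte lineages.

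Array medians lay between 129.2 and 208.3 intensity units for the leukaemias and between 160.1 and 184.9 for normal marrow. Levels are given as log2(intensity + 46.1) after each array was shifted to a common median of 7.66, and a level is compared only with the same probe set on other arrays. Ptprc, the phosphatase found on nearly all white blood cells and singled out here with its values known, lay between 12.57 and 13.84 in the leukaemias and between 13.28 and 13.74 in normal marrow. The log2 ratio of the 3′ to the 5′ actin control probe set, a sign of RNA quality, was 0.306 at the median (0.15 to 0.647) in the leukaemias against 0.128 (0.073 to 0.217) in normal marrow, and its part in the changes against normal marrow was not tested. The leukaemia arrays fell into 2 sets of 16 and 18 that the labels do not name, with mice of every cohort in both. Of the 18 tested probe sets, 2 differed between the sets within cohorts (adjusted p under 0.05 by limma, against 9.78% of all probe sets), both for Runx1. On the mean of the probe sets that gave the split, normal mice 3 and 4 lay within the range of set 2. Normal mice 1 and 2 lay between the sets, and no normal array was assigned to either.

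Against normal marrow, the transcript of Tal1 was far lower in every leukaemia, while those of Lyl1, Hhex, Spi1 and Lmo2 were higher. Runx1, Erg and Fli1 each had at least 1 probe set that rose, and Gata2 and Mecom had none that passed the test over the 5 cohorts together. Changes compare the unweighted mean of the 5 cohort means with the mean of the 4 normal samples, by limma's moderated test with Benjamini-Hochberg adjustment over all 29004 probe sets. At adjusted p under 0.05, 9 of the 18 probe sets were called, 8 of them higher and 1 lower. Of all probe sets 36.9% were called, 24.9% higher and 12.1% lower. The median change was 0.42 (log2) over the 18 probe sets and 0.14 over all. With each gene represented by its brightest tested probe set, 7 of the 10 genes were called, 6 higher and 1 lower. Of all 13333 genes taken in the same way, 28.3% were called higher and 12.5% lower. The 1 lower gene, Tal1, passed the filter through the normal arrays alone. Among the 8 higher probe sets, Runx1 1427650_a_at passed it through the leukaemias alone.

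**Figure D1:**
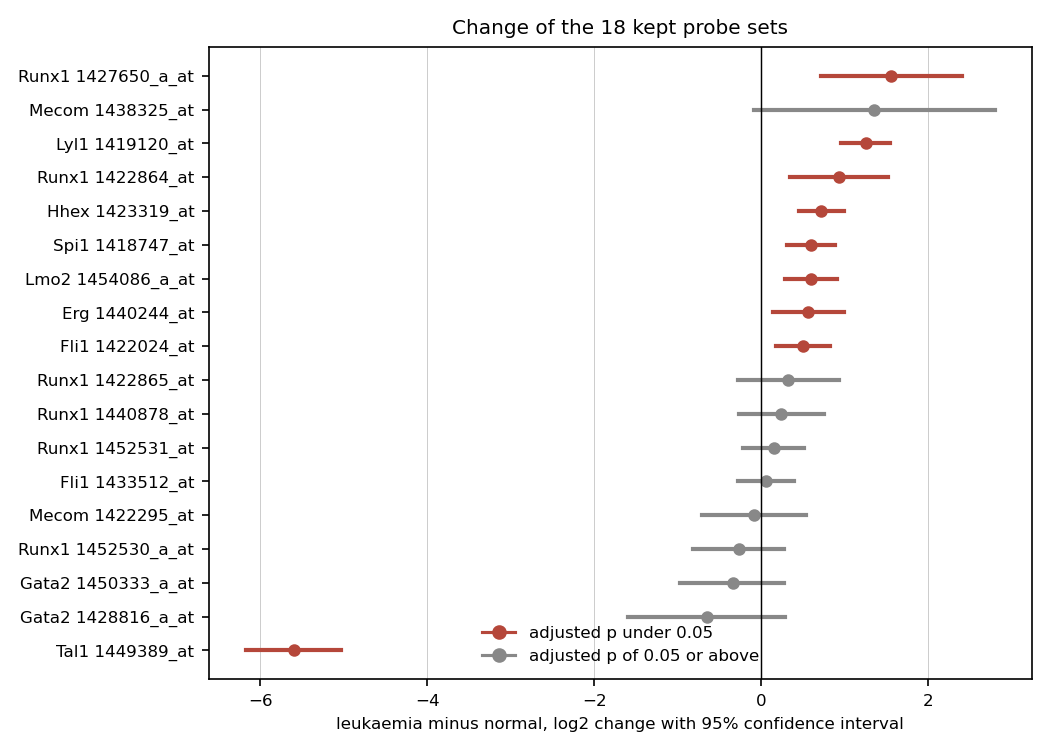
Log2 change, leukaemia (mean of 5 cohorts, 34 mice) minus normal (4 mice), of each of the 18 tested probe sets, with the 95% confidence interval from limma as a line; red marks adjusted p under 0.05. Tal1 lies at -5.60, the other called probe sets lie between 0.51 and 1.56, and the probe sets of Runx1, Fli1 and Mecom are spread over both colours or both sides of 0.

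Tal1 (probe set 1449389_at) had the largest change of the 18. Its level was 5.60 at the lowest, 6.73 at the median and 7.54 at the highest of the 34 leukaemias, against 12.69, 12.32, 11.65 and 12.49 in normal mice 1, 2, 3 and 4. Every leukaemia lay below every normal sample. That held for 3.8% of all probe sets. The change was -5.60 ± 0.28 (SE, log2), or 48.5-fold lower, with adjusted p = 7.25e-19 by limma. All 34 leukaemias were also below their own array's median, so this probe set entered the test through the normal arrays alone and the size of its change is limited by the pseudocount. The cohorts gave 6.39 ± 0.68 for MLL-AF1p, 6.70 ± 0.61 for MLL-AF10, 6.66 ± 0.45 for MLL-GAS7, 7.05 ± 0.36 for MLL-AF9 and 6.62 ± 0.49 for MLL-ENL, against 12.29 ± 0.45 in normal marrow (SD between mice). No difference among the cohorts was called for Tal1 (adjusted p = 0.533, limma's F test).

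Marker genes of the lineages that normally carry Tal1 were lower with it. Of all 13333 genes, 12.5% were called lower. Of 10 measured erythroid markers 10 fell, with a median change of -6.00, and their summed intensity was 617 to 2139 in the leukaemias against 106313 to 148196 in normal marrow. Alas2, which encodes the first enzyme of the haem pathway in erythroblasts, fell by 8.64 ± 0.18 (SE, log2, adjusted p = 2.37e-31, limma). Of 8 megakaryocyte and platelet markers 7 fell, and their sum was 1025 to 2778 against 22948 to 34565. The platelet chemokine gene Pf4 fell by 4.56 ± 0.22 (log2, adjusted p = 2.88e-19, limma). Of these markers, 3 erythroid and 1 megakaryocytic lay below the array median on every leukaemia array, so they entered the test through the normal arrays alone. The part of these cells in the change of Tal1 was not tested.

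**Figure D2:**
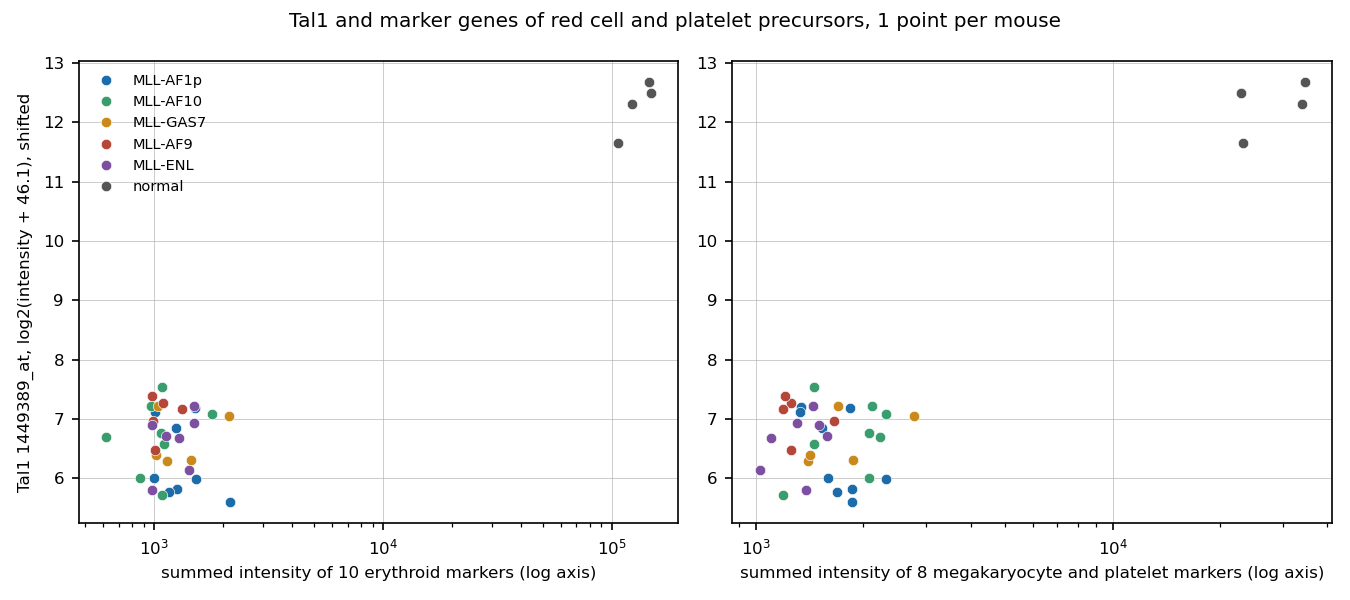
Level of Tal1 1449389_at (vertical axis, log2) against the summed intensity of 10 erythroid markers (left) and of 8 megakaryocyte and platelet markers (right, both on log axes), 1 point per mouse, coloured by cohort. The 34 leukaemias sit at 5.60 to 7.54 with erythroid sums of 617 to 2139, apart from the 4 normal mice at 11.65 to 12.69 with sums of 106313 to 148196.

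Lyl1 (1419120_at), the closest relative of Tal1 among the 10, moved the other way. Its level was 11.97, 12.77 and 13.31 at the lowest, median and highest of the leukaemias, against 11.56, 11.52, 11.59 and 11.44 in normal mice 1 to 4. All 34 leukaemias lay above all 4 normal samples, as did those of 3.72% of all probe sets. The change was 1.25 ± 0.15 (SE, log2), or 2.39-fold, with adjusted p = 7.33e-09 by limma. By cohort Lyl1 averaged 12.75 ± 0.35 for MLL-AF1p, 12.90 ± 0.17 for MLL-AF10, 12.53 ± 0.33 for MLL-GAS7, 12.97 ± 0.21 for MLL-AF9 and 12.78 ± 0.23 for MLL-ENL, against 11.53 ± 0.06 in normal marrow. The change stood between 0.997 in MLL-GAS7 and 1.44 in MLL-AF9, each called, and the cohorts were not called different from each other (adjusted p = 0.318, F test).

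Promoter sequence is shown for Tal1 and Lyl1 because they are the relatives with opposite changes. The lines give the 250 bases before a RefSeq transcript start in GRCm38.p6, all on the plus strand, 5′ to 3′. Capitals mark the matches found to GATA motifs (AGATAA or TGATAA, and AGATAG or TGATAG), the ETS motif CGGAAG and RUNX motifs (TGTGGT or TGCGGT) on either strand. The first Tal1 window is chr4:115056176-115056425, the second, at an alternative start, is chr4:115057561-115057810, and the Lyl1 window is chr8:84701207-84701456.
Tal1 first start: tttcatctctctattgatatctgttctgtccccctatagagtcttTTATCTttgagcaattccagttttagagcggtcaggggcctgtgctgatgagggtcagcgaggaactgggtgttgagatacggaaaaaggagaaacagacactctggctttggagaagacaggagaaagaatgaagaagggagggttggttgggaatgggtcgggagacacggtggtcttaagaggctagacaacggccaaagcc
Tal1 alternative start: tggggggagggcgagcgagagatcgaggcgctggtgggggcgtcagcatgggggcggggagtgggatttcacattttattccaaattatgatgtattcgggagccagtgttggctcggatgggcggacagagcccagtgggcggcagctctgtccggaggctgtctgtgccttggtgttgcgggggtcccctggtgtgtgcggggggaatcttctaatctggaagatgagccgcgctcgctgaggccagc
Lyl1: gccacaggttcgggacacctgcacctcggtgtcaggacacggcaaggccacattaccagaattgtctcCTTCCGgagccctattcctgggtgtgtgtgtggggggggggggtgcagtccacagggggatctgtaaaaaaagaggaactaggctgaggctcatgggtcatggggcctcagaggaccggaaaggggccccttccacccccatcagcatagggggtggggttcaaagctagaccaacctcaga
The first Tal1 window holds 1 GATA match, on the minus strand (TTATCT). The Lyl1 window holds 1 ETS match, also on the minus strand (CTTCCG), and the second Tal1 window holds none of these. Of all 32851 promoters of that table, cut to the same 250 bases, 26.5% hold a GATA match, 13.6% the ETS match and 18.6% a RUNX match. The E-box CANNTG, the motif of helix-loop-helix proteins, is left in lower case: it occurs 1 time in the Lyl1 window, away from the ETS match, and in 66.2% of all promoters. A match describes these letters and no binding was measured.

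Lmo2 (1454086_a_at), the bridge between Tal1 or Lyl1 and GATA factors, rose by an amount that differed between fusions. The leukaemias ran from 12.20 through a median of 13.16 to 13.74, against 12.73, 12.61, 12.19 and 12.70 in normal mice 1 to 4. Of 34 leukaemias 28 lay above all normal samples and the other 6 lay within their range. The change was 0.60 ± 0.15 (SE, log2), 1.51-fold, with adjusted p = 0.00187 by limma.

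Lmo2 also differed among the fusions (adjusted p = 0.00365 by limma's F test over the 5 cohorts, a test passed by 6.28% of all probe sets). The 5 MLL-AF9 mice gave 13.60, 13.70, 13.05, 13.68 and 13.74, and the 7 MLL-ENL mice ran from 12.81 through 13.54 to 13.73. The 8 MLL-AF10 mice ran from 12.87 through 13.12 to 13.48, and the 9 MLL-AF1p mice from 12.52 through 12.97 to 13.32. The 5 MLL-GAS7 mice gave 12.71, 13.11, 12.20, 12.70 and 12.59, against the normal range of 12.19 to 12.73. MLL-GAS7 was thus the cohort whose mice mostly overlapped normal marrow, with 1 of 5 above all normal samples.

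In order of their means, Lmo2 stood at 13.55 ± 0.28 in MLL-AF9, 13.44 ± 0.30 in MLL-ENL, 13.13 ± 0.20 in MLL-AF10, 12.98 ± 0.29 in MLL-AF1p and 12.66 ± 0.32 in MLL-GAS7, against 12.56 ± 0.25 in normal marrow (SD). No neighbours in this order were called different (adjusted p between 0.249 and 0.893), while MLL-GAS7 was lower than MLL-AF9 by limma (-0.89 ± 0.18, adjusted p = 0.00715) and than MLL-ENL (-0.78 ± 0.17, adjusted p = 0.00412). Those pairs had 0.693% and 6.08% of all probe sets called. Against the mean of the other 4 cohorts, MLL-GAS7 was lower (-0.62 ± 0.14, adjusted p = 0.00817, limma), in a comparison that called 3.45% of all probe sets. Without MLL-GAS7_407 the value was no longer called (adjusted p = 0.0632). This mouse was the lowest of all leukaemias for Lmo2 and for Erg. It was also lowest for Lyl1 (11.97) and on Runx1 1422864_at (8.95), but not for Hhex (11.62) or Spi1 (12.45). Its array median before the shift was 206.8, against 151.05 at the median of the leukaemias, and the shift lowers the levels of such an array. As deposited, its Erg intensity was 384.6, against 373.3 in MLL-AF10_798A. MLL-GAS7_407 had the highest sum of 9 B cell markers among the leukaemias, 6353 (next 3562, against 13071 to 26269 in normal marrow). Its sum of 7 endothelial and stromal markers was 7210 (next 3816, against 5744 to 9080 in normal marrow). The part of these cells, or of the shift, in its values was not tested.

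Erg (1440244_at), an ETS factor needed for stem cell self-renewal, was highest in the MLL-ENL mice. Over all leukaemias it ran from 8.43 through 9.69 to 10.61, against 9.16, 9.07, 9.37 and 8.97 in normal mice 1 to 4. Of 34 leukaemias 26 lay above all normal samples and 4 below them. The change was 0.56 ± 0.21 (SE, log2), 1.48-fold, with adjusted p = 0.0314 by limma. It was 0.44 and no longer called with the arrays left as deposited (adjusted p = 0.0667), 0.43 with the leukaemias of set 1 alone (0.123), and was lost without normal mouse 1, 2 or 4 (highest adjusted p 0.112).

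Among the cohorts the Erg level stood at 10.30 ± 0.23 in MLL-ENL, 9.99 ± 0.33 in MLL-AF9, 9.57 ± 0.56 in MLL-AF10, 9.39 ± 0.26 in MLL-AF1p and 9.28 ± 0.62 in MLL-GAS7, against 9.14 ± 0.17 in normal marrow (SD). The cohorts differed (adjusted p = 0.00662, F test). All 7 MLL-ENL mice, at 9.90 to 10.61, and all 5 MLL-AF9 mice, at 9.68, 9.70, 9.89, 10.24 and 10.42, were above every normal sample. MLL-GAS7_407 and MLL-GAS7_408, at 8.43 and 8.85, were below every normal sample, and the other 3 of that cohort were above.

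Against the mean of the other 4 cohorts, MLL-ENL was higher for Erg by 0.74 ± 0.17 (adjusted p = 0.0105, limma), where 3.83% of all probe sets were called. In pairs, Erg was lower than in MLL-ENL in MLL-AF1p (-0.91, adjusted p = 0.00851), in MLL-AF10 (-0.73, 0.0425) and in MLL-GAS7 (-1.02, 0.0063), all by limma. The first 2 of those pairs had 2.82% and 2.88% of all probe sets called. No neighbours in the order of cohort means were called different, with adjusted p between 0.531 and 0.878. The second Erg probe set, 1425370_a_at, lay below the array median on all 38 arrays and gave 5.69 to 6.49 in the leukaemias against 5.87 to 6.05 in normal marrow.

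Gata2 (1450333_a_at), the zinc-finger factor of stem cells, early progenitors and mast cells, split the cohorts without a common change against normal. Its level ran from 8.17 through 9.61 to 11.21 in the leukaemias, against 9.64, 10.01, 10.05 and 10.05 in normal mice 1 to 4. Of the 34 leukaemias 9 lay above all normal samples and 17 below them. The change over all cohorts was -0.34 ± 0.31 (log2, 95% confidence interval -0.97 to 0.28, adjusted p = 0.417, limma).

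The cohorts differed in Gata2 on this probe set (adjusted p = 0.0178, F test), a call lost with the mean of both Gata2 probe sets (0.0543). MLL-AF1p mice ran from 8.38 through 8.74 to 9.56, all 9 below every normal sample, and MLL-AF10 mice from 8.17 through 9.24 to 10.52. MLL-GAS7 mice were at 8.59, 9.32, 10.40, 10.42 and 10.56, MLL-AF9 mice at 9.84, 10.14, 10.24, 10.31 and 10.41, and MLL-ENL mice ran from 9.32 through 9.80 to 11.21. The 5 MLL-AF9 values were thus close together, while MLL-AF10, MLL-GAS7 and MLL-ENL each held mice above and mice below every normal sample.

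Set against normal marrow, Gata2 was lower in MLL-AF1p (-1.09 ± 0.35, SE, log2, 2.12-fold, adjusted p = 0.0152, limma), the only cohort in which the fit called it. Against the mean of the other 4 cohorts MLL-AF1p was lower (-0.93 ± 0.23, adjusted p = 0.0248), in a comparison with 1.26% of all probe sets called. The pairs called were MLL-AF1p against MLL-AF9 (-1.34, adjusted p = 0.0295, limma) and against MLL-ENL (-1.03, 0.0456), and the first of them had 0.962% of all probe sets called. The neighbours in the order MLL-AF9, MLL-ENL, MLL-GAS7, MLL-AF10, MLL-AF1p were not called different (adjusted p between 0.371 and 0.979). The call against the other cohorts was lost with the mean of both probe sets (-0.94, adjusted p = 0.0675) and without MLL-AF1p_803, MLL-AF1p_806 or MLL-AF1p_811 (highest adjusted p 0.0744).

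The second Gata2 probe set, 1428816_a_at, followed the first over the leukaemias, with Pearson r = 0.86 between deviations from cohort means (n = 34 arrays, so both share each array's RNA and scaling). It was lower in MLL-AF1p, at 6.06 to 8.64 against 7.85 to 9.10 in normal marrow, with a change of -1.40 ± 0.53 (log2, adjusted p = 0.0378, limma). Here 8 of 9 MLL-AF1p mice lay below all normal samples. Leaving out single arrays ended that call in 6 cases, for MLL-AF1p_801, MLL-AF1p_804 and MLL-AF1p_809 and normal mice 2, 3 and 4 (adjusted p up to 0.112), and so did testing with no filter (0.0525). The F test did not call it among the cohorts (adjusted p = 0.151).

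The 2 other genes most like Gata2 over the leukaemias were Cpa3, the carboxypeptidase of mast cells that is also made in some progenitors (r = 0.84, Spearman's rho 0.80, deviations from cohort means, n = 34), and Oaf (r = 0.82, rho 0.75). With the array set removed Oaf came first (r = 0.89, and 0.85 for Cpa3). The median level of Cpa3 was 7.68 for MLL-AF1p, 9.04 for MLL-AF10, 10.99 for MLL-GAS7, 10.50 for MLL-AF9 and 10.34 for MLL-ENL, against 9.70 for normal marrow. It was thus low in the cohort with low Gata2, though its own F test missed the threshold (adjusted p = 0.0556, limma). Of 7 measured markers of mast cells, basophils and eosinophils, 5 fell against normal marrow and 2 did not pass the test. Their summed intensity was 1310 to 3990 for MLL-AF1p, 1814 to 11973 for MLL-AF10, 962 to 6792 for MLL-GAS7, 1547 to 6874 for MLL-AF9 and 2042 to 20920 for MLL-ENL, against 23792 to 38631 for normal marrow. None of the 7 was below the array median on every leukaemia array. Of all genes 12.5% were called lower. The part of such cells in the Gata2 differences was not tested.

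With the array set as a term among the leukaemias, the F test again called 3 of the 10 genes. Within either array set alone, with fewer mice, it called 0 (adjusted p by limma of 0.286 and 0.0665 for Lmo2, 0.0612 and 0.0928 for Erg and 0.0646 and 0.225 for Gata2 in sets 1 and 2). Over all 29004 probe sets the F test called 244 in set 1 and 423 in set 2, against 1821 in the main fit.

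**Figure D3:**
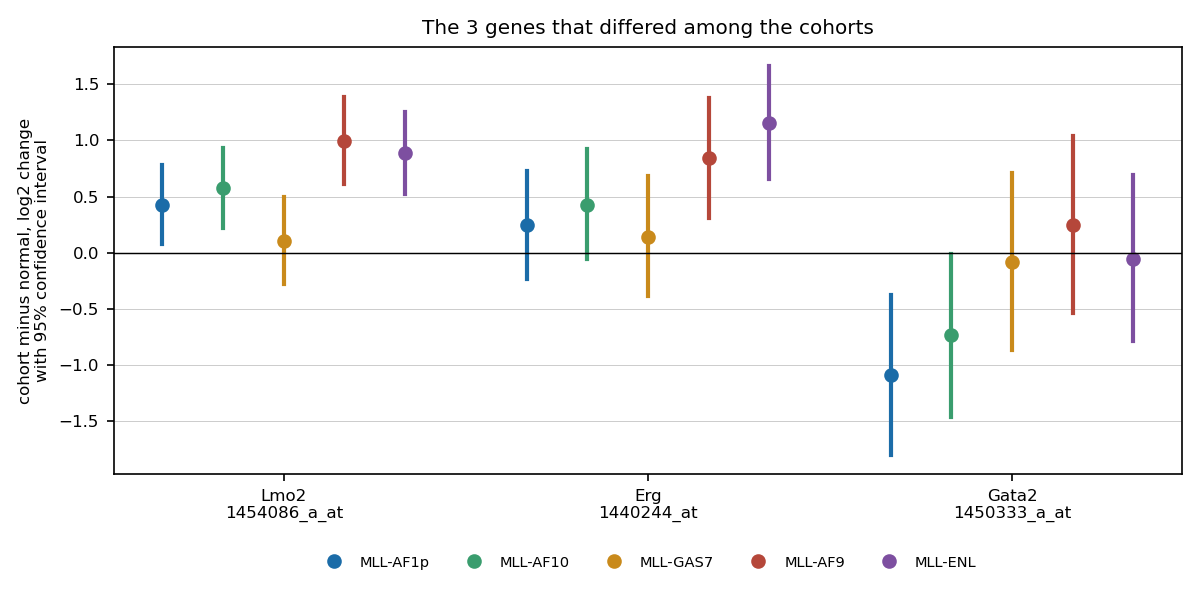
Change of Lmo2, Erg and Gata2 in each cohort minus the same 4 normal mice (vertical axis, log2), with the 95% confidence interval from limma as a line and 1 colour per cohort of 9, 8, 5, 5 and 7 mice. Lmo2 stands highest in MLL-AF9 (0.997) and lowest in MLL-GAS7 (0.11), Erg highest in MLL-ENL (1.16) and lowest in MLL-GAS7 (0.14), and Gata2 lowest in MLL-AF1p (-1.09).

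Spi1 (1418747_at), the ETS factor that directs myeloid development, rose by a modest amount in all cohorts. It ran from 11.94 through 12.57 to 12.99 in the leukaemias, against 11.66, 12.11, 12.59 and 11.59 in normal mice 1 to 4. Normal mouse 3 lay inside the leukaemia range, so that 15 of 34 leukaemias were above all normal samples. The change was 0.60 ± 0.14 (SE, log2), 1.52-fold, with adjusted p = 0.000874 by limma. By cohort it was 0.62 for MLL-AF1p, 0.43 for MLL-AF10, 0.60 for MLL-GAS7, 0.66 for MLL-AF9 and 0.69 for MLL-ENL, each called. No difference among the cohorts was called (adjusted p = 0.608, F test). The call in MLL-GAS7 (adjusted p = 0.0136, limma) was lost without normal mouse 1 or 4 (up to 0.0895). The call in MLL-AF10 (adjusted p = 0.0388) was lost under quantile normalisation (0.171), with the arrays as deposited (0.0845) and with no filter (0.0557), and without any of 6 single arrays (up to 0.22), those of MLL-AF10_782A, MLL-AF10_799A, MLL-AF10_802A, MLL-AF10_805A and normal mice 1 and 4.

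Hhex (1423319_at), a homeobox factor of early blood and liver cells, rose in every leukaemia. It ran from 11.13 through 11.59 to 11.96 in the leukaemias, against 10.87, 10.94, 10.87 and 10.76 in normal mice 1 to 4, with no overlap. Lyl1 and Hhex were the 2 of the 18 probe sets with all leukaemias above all normal samples, which held for 3.72% of all probe sets. The change was 0.72 ± 0.13 (SE, log2), 1.65-fold, with adjusted p = 3.15e-05 by limma. The cohort means stood between 11.47 ± 0.23 in MLL-AF10 and 11.71 ± 0.12 in MLL-AF9, and no difference among cohorts was called (adjusted p = 0.709).

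**Figure D4:**
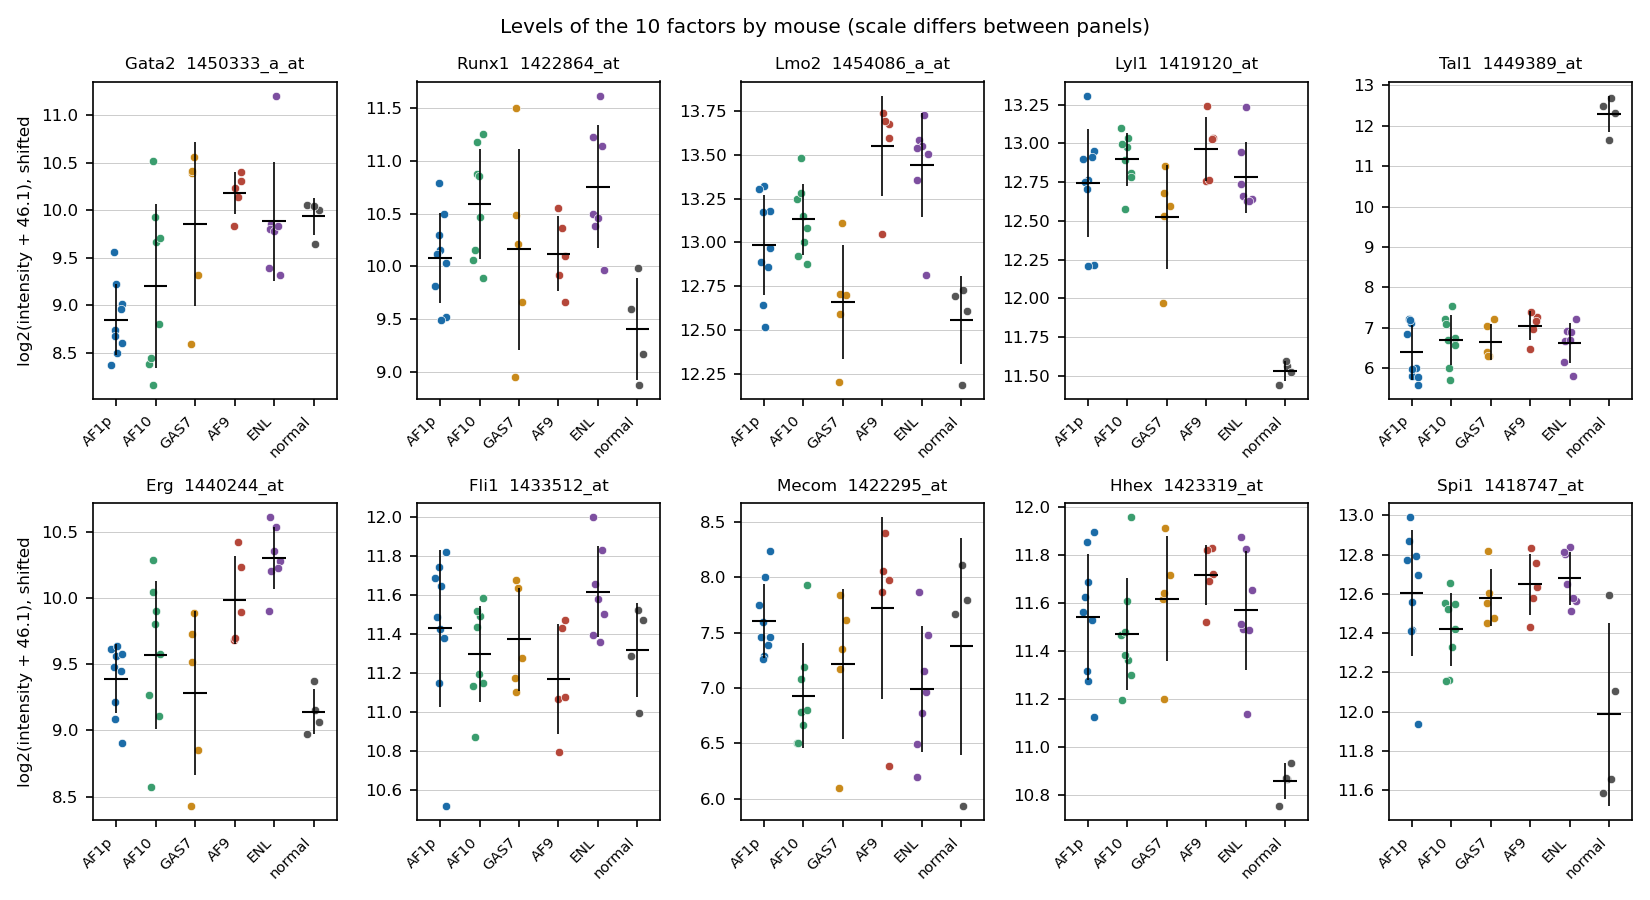
Level of each of the 10 genes by its brightest tested probe set (vertical axis, log2, a scale of its own in each panel), 1 point per mouse, for the 5 cohorts and normal marrow; the horizontal bar is the group mean and the vertical line 1 SD. Tal1 separates downwards and Lyl1 and Hhex upwards from the 4 normal mice, while Lmo2, Erg and Gata2 step between cohorts.

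Fli1, an ETS factor of stem cells and megakaryocytes, gave different answers by probe set. On 1422024_at it ran from 10.06 through 10.78 to 11.51 in the leukaemias, against 9.80, 10.39, 10.52 and 10.37 in normal mice 1 to 4, and 29 of 34 leukaemias were above all normal samples. That change was 0.51 ± 0.16 (SE, log2, 1.42-fold, adjusted p = 0.0118, limma), and it was not called without normal mouse 1 (adjusted p = 0.136) or under quantile normalisation (0.0539). On the brighter 1433512_at the leukaemias ran from 10.52 through 11.43 to 12.00, against 10.99, 11.47, 11.52 and 11.29. There the groups overlapped and the change was 0.06 (95% confidence interval -0.27 to 0.39, adjusted p = 0.815). Its sign turned to -0.07 as deposited and to -0.12 under quantile normalisation. Over the leukaemias the 2 probe sets were alike with r = 0.64 (n = 34).

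Runx1, the DNA-binding subunit of core binding factor, was called higher by 2 of its 6 probe sets. On 1422864_at the leukaemias ran from 8.95 through 10.33 to 11.62, against 8.88, 9.17, 9.98 and 9.60 in normal mice 1 to 4, and 25 of 34 lay above all normal samples. The change was 0.94 ± 0.29 (SE, log2, 1.91-fold, adjusted p = 0.00947, limma). It was lost without normal mouse 1 (adjusted p = 0.0747), and the mean of all 6 probe sets changed by 0.49 and was not called (adjusted p = 0.0743).

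The largest Runx1 change came from 1427650_a_at, at 5.96, 8.47 and 9.63 at the lowest, median and highest of the leukaemias against 5.77, 6.44, 7.05 and 7.53 in normal mice 1, 2, 3 and 4. This was 1.56 ± 0.42 (SE, log2, 2.96-fold, adjusted p = 0.00309), with 28 of 34 leukaemias above all normal samples. All 4 normal arrays were below their median there, so the probe set passed the filter through the leukaemias alone. The other 4 probe sets changed by 0.33, 0.25, 0.15 and -0.27 and were not called (adjusted p between 0.417 and 0.54).

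The 2 sets of leukaemia arrays differed on 2 of the 6 Runx1 probe sets, in a comparison that called 9.78% of all probe sets. Set 1 was lower than set 2 within cohorts on 1422864_at (-0.66 ± 0.16, log2, adjusted p = 0.00445, limma) and on 1452530_a_at (-0.77 ± 0.12, adjusted p = 2.96e-05). With the leukaemias of set 1 alone against normal, 1422864_at changed by 0.58 (adjusted p = 0.0506) and 1452530_a_at fell by 0.64 (0.00861). With those of set 2 alone, 1452530_a_at stood at 0.08 and was not called (0.778). The part of the array sets in the Runx1 values was not tested further.

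Mecom, which encodes Evi1, differed more between mice of a cohort than between groups. On 1438325_at 14 of 34 leukaemias lay above their array's median, while normal mice 1 to 4 stood at 5.71, 5.75, 5.68 and 5.64, near the bottom of the scale. The 14 were 6 of 9 MLL-AF1p mice, 4 of 8 MLL-AF10 mice, 0 of 5 MLL-GAS7 mice, 2 of 5 MLL-AF9 mice and 2 of 7 MLL-ENL mice. The 5 MLL-AF9 mice gave 5.86, 5.88, 6.93, 8.58 and 11.86, so that MLL-AF9_305 alone was far above all others. MLL-AF1p ran from 5.75 through 8.26 to 9.84, MLL-AF10 from 5.75 through 6.86 to 8.23, MLL-ENL from 5.73 through 5.89 to 8.84, and MLL-GAS7 gave 5.69, 5.74, 5.83, 5.90 and 7.60. The spread within cohorts was 1.51 (SD, log2), the largest of the 18 probe sets, against 0.05 between the normal mice.

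Over the cohorts the change of Mecom 1438325_at was 1.36 ± 0.71 (SE, log2, 95% confidence interval -0.08 to 2.80, adjusted p = 0.134, limma), and the cohorts were not called different (adjusted p = 0.371). In MLL-AF1p alone it was higher by 2.08 ± 0.80 (adjusted p = 0.0447), a call lost when any of 10 single arrays was left out (adjusted p up to 0.0914), those of MLL-AF1p_803, MLL-AF1p_804, MLL-AF1p_808, MLL-AF1p_809, MLL-AF1p_810, MLL-AF1p_811 and the 4 normal mice. It was also lost with the arrays as deposited (0.0645), under quantile normalisation (0.0584), with no filter (0.0616) and with a pseudocount of 100 (0.0554). All 4 normal arrays were below their median, so this probe set passed the filter through the leukaemias alone. With a level this close to the pseudocount in normal marrow, the size of any change depends on the pseudocount. Whether a larger change lies behind the measured one was not tested.

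The brighter Mecom probe set, 1422295_at, ran from 6.09 through 7.32 to 8.40 in the leukaemias against 5.93, 7.79, 8.11 and 7.67 in normal mice 1 to 4. It changed by -0.08 (95% confidence interval -0.71 to 0.54, adjusted p = 0.862, limma). The 2 probe sets were weakly alike over the leukaemias (r = 0.18, n = 34), although MLL-AF9_305 was the highest of all leukaemias on both, at 8.40 here. The probe set below the filter, 1423011_at, gave 5.63 to 8.04 in the leukaemias against 5.75 to 6.31 in normal marrow, and MLL-AF9_305 stood at 7.69.

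**Figure D5:**
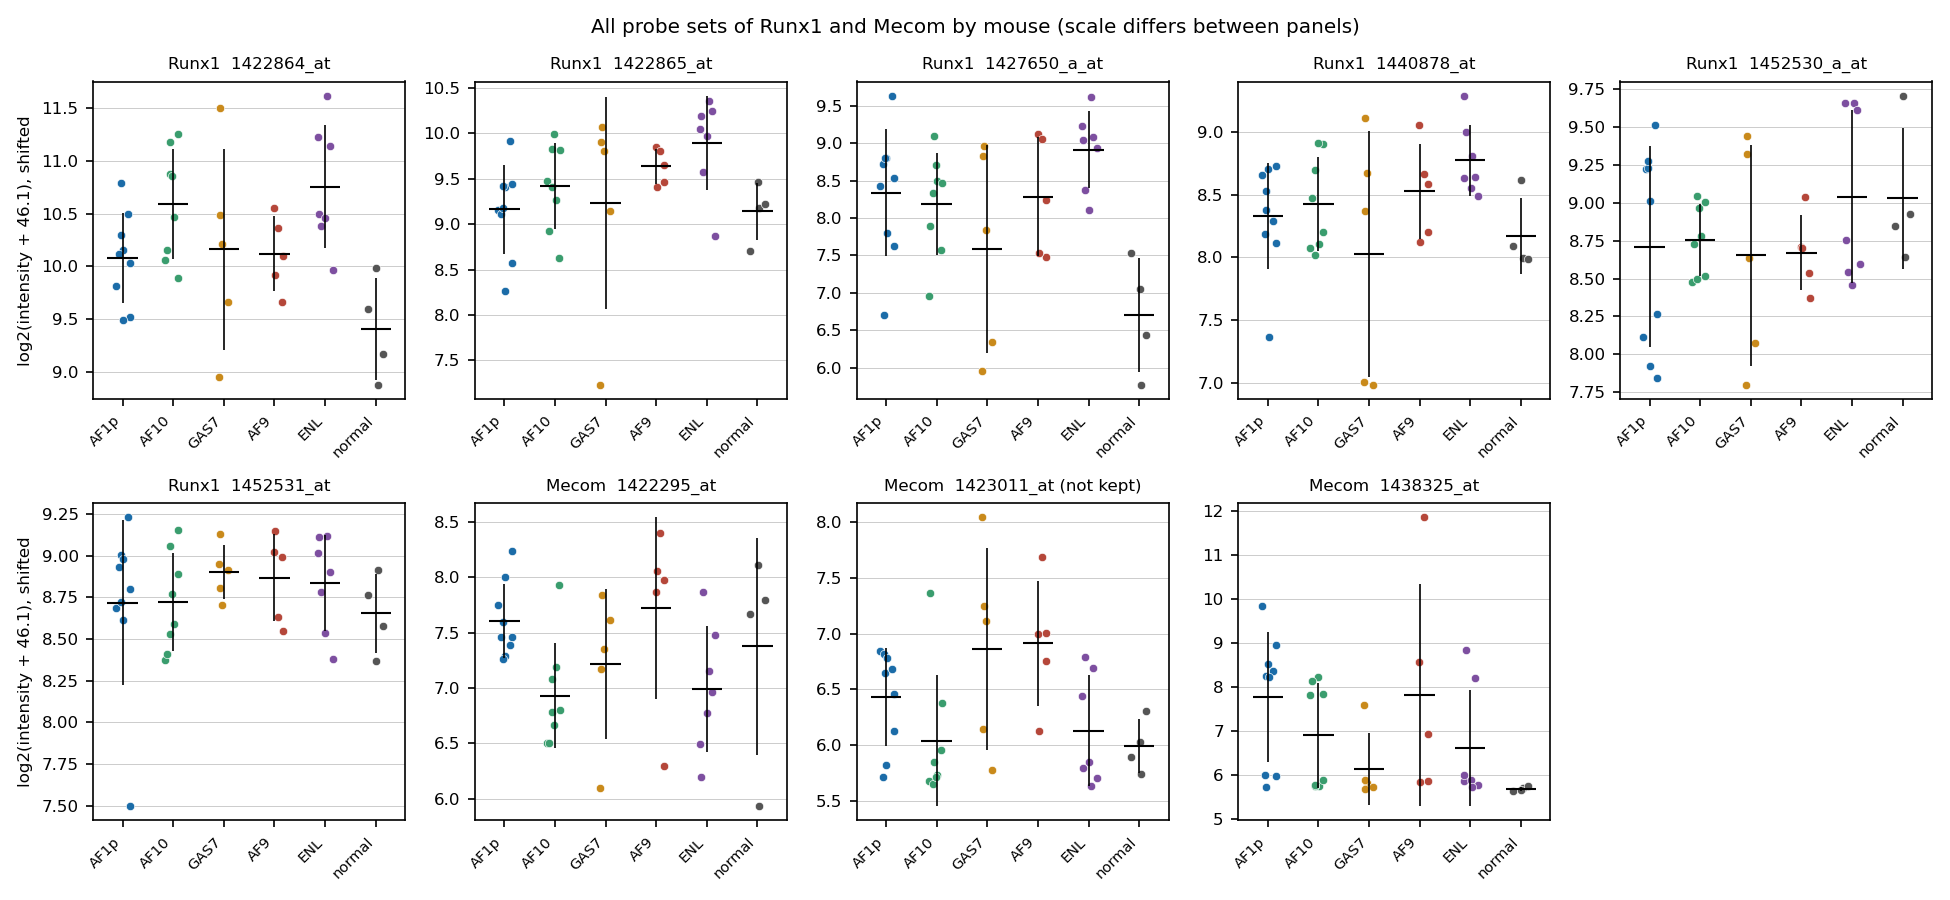
Level on each of the 6 Runx1 and 3 Mecom probe sets (vertical axis, log2, a scale of its own in each panel), 1 point per mouse for the 5 cohorts and normal marrow, with the group mean as a bar and 1 SD as a line. Runx1 1422864_at and 1427650_a_at sit above normal marrow in most leukaemias and 1452530_a_at does not, and Mecom 1438325_at reaches 11.86 in 1 MLL-AF9 mouse while the 4 normal mice stay at 5.64 to 5.75.

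The 5 cohorts were also set against the 4 normal samples 1 at a time, and since all 5 comparisons use those samples their counts are not independent. MLL-AF1p had 9 of the 18 probe sets called, 6 higher and 3 lower, where 31.9% of all probe sets were called, 20.6% higher and 11.3% lower. MLL-AF10 had 7 called, 6 of them higher (32.7% of all, 21.9% higher and 10.8% lower), and MLL-GAS7 had 4, 3 of them higher (22.6% of all, 13.3% higher and 9.33% lower). MLL-AF9 had 7 called, 6 of them higher (27.7% of all, 18.7% higher and 9.02% lower), and MLL-ENL had 9, 8 of them higher (35.4% of all, 25.1% higher and 10.3% lower). Tal1 lower and Lyl1, Hhex and Spi1 higher were called in each cohort, and in MLL-GAS7 those 4 were the only calls. Tal1 entered the test through the normal arrays alone. The counts of higher calls include Runx1 1427650_a_at in every cohort but MLL-GAS7, and Mecom 1438325_at in MLL-AF1p. Both of these probe sets entered the test through the leukaemias alone.

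Further calls were made in some cohorts against normal marrow. Lmo2 was called in MLL-AF10 (0.58, adjusted p = 0.0102, limma), MLL-AF9 (0.997, 0.000124) and MLL-ENL (0.89, 0.00017), against 0.43 (0.0538) in MLL-AF1p and 0.11 (0.751) in MLL-GAS7. Erg was called in MLL-AF9 (0.84, adjusted p = 0.0148) and MLL-ENL (1.16, 0.000306). Runx1 1422864_at was called in MLL-AF10 (1.19, adjusted p = 0.00519) and MLL-ENL (1.35, 0.00183), and 1427650_a_at in every cohort but MLL-GAS7. Fli1 1422024_at was called in MLL-AF1p (0.60, adjusted p = 0.00982) and MLL-ENL (0.75, 0.00192). For Runx1 and Fli1 a call in one cohort and none in another is no difference between them: limma's F test among the cohorts gave adjusted p = 0.264 for Runx1 1422864_at, 0.305 for 1427650_a_at and 0.342 for Fli1 1422024_at. Without normal mouse 1 the Fli1 call in MLL-AF1p (adjusted p = 0.0904) and those of Runx1 1427650_a_at in MLL-AF1p (0.0546) and MLL-AF10 (0.0943) were lost. In MLL-AF9, Runx1 1427650_a_at was lost without MLL-AF9_305, MLL-AF9_307 or normal mouse 1 or 2 (up to 0.102). The Lmo2 call in MLL-AF10 was lost without normal mouse 3 (adjusted p = 0.0728) and under quantile normalisation (0.0906). No member was called in MLL-AF10 or MLL-AF9 against the mean of the other 4 cohorts, where 0.445% and 0.355% of all probe sets were. At an unadjusted p under 0.05 limma gave 1 of the 18 probe sets in MLL-AF10 and 3 in MLL-AF9. It gave 3 in MLL-AF1p, 5 in MLL-GAS7 and 8 in MLL-ENL. The share of all probe sets at that threshold was not counted, so these counts are not read further.

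Partners and co-regulators of the core factors moved both ways. Of 20 genes measured, 5 rose, 5 fell and 10 did not pass, with a median change of 0.10. Over all 13333 genes the median was 0.16, and 28.3% rose and 12.5% fell. The 5 that rose did so by at most 0.72 (log2, Id1, adjusted p = 0.0273, limma), and the 4 largest called changes, named next, were falls. Zfpm1, the cofactor FOG1 that GATA factors use in red cells and platelets, fell by 4.25 ± 0.17 (SE, log2, adjusted p = 1.27e-21, limma) and was below all normal samples in 34 of 34 leukaemias. Id3, an inhibitor of E proteins, fell by 1.93 ± 0.30 (adjusted p = 2.91e-06). Tcf3, which encodes the E proteins that pair with Tal1 and Lyl1, fell by 0.93 ± 0.15 (8.59e-06), and Ssbp3, which binds the adaptor Ldb1, fell by 0.92 ± 0.19 (0.000267).

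Relatives of the core factors were measured for 12 of 15 genes, of which 2 rose and 4 fell, with a median of -0.19. Over all genes 28.3% rose and 12.5% fell, with a median of 0.16. The relatives that rose were Etv6 (1.34 ± 0.18, SE, log2, adjusted p = 1.07e-07, limma) and Runx3 (1.30 ± 0.18, 4.65e-07). Those that fell were Spib, an ETS factor of B and plasmacytoid dendritic cells (-4.18 ± 0.24, adjusted p = 2.89e-17, limma), and Gata1, the GATA factor of red cells and platelets (-3.76 ± 0.28, 1.01e-13). Ets1 of lymphocytes fell by 2.65 ± 0.41 (2.47e-06), and Spic of red pulp macrophages fell by 1.53 ± 0.34 (0.000455). Gata1 lay below all normal samples in 34 of 34 leukaemias, unlike Gata2.

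Lymphoid and macrophage markers were lower as well, beside those relatives. Of all genes 12.5% were called lower and 28.3% higher. Of 9 B cell markers 9 fell, with summed intensities of 1299 to 6353 in the leukaemias against 13071 to 26269 in normal marrow. Below the array median on every leukaemia array were 2 of them, which entered the test through the normal arrays alone. Of 7 T and NK cell markers 6 fell (sums of 643 to 4985 against 4205 to 6028). Of 8 resident macrophage markers 7 fell and 1 rose (3813 to 12633 against 9110 to 22047). Of 7 endothelial and stromal markers 3 fell and 1 rose (1377 to 7210 against 5744 to 9080). The part of these cell types in the changes of Spib, Ets1, Spic or the core factors was not tested.

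Among 17 measured stem and progenitor genes 7 rose and 4 fell, with a median of 0.25. Over all genes 28.3% rose and 12.5% fell, with a median of 0.16. The oncogene Mycn rose by 5.29 ± 0.30 (SE, log2, adjusted p = 2.3e-17, limma) and Meis1, the DNA-binding partner of Hoxa9, by 3.70 ± 0.25 (5.82e-15), both above all normal samples in 34 of 34 leukaemias. Gfi1b, a repressor needed for red cells and platelets, fell by 2.95 ± 0.32 (2.51e-09), and Pdzk1ip1, the gene next to Tal1 that shares its stem cell enhancer, fell by 2.92 ± 0.33 (3.82e-09).

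Of 18 measured myeloid genes known as targets of Spi1, 9 rose and 1 fell, with a median of 0.57. Over all genes 28.3% rose and 12.5% fell, with a median of 0.16. Csf1r, the receptor for macrophage colony-stimulating factor, rose by 1.42 ± 0.20 (SE, log2, adjusted p = 6.83e-07, limma). Cebpa and Cebpb, transcription factors of granulocytes and monocytes, rose by 1.40 ± 0.24 (1.14e-05) and 1.26 ± 0.23 (4.28e-05). Csf3r, the receptor for granulocyte colony-stimulating factor, fell by 1.31 ± 0.32 (0.00124) and lay below all normal samples in 33 of 34 leukaemias.

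How the 10 genes varied together was described over the 34 leukaemias, as Pearson r between deviations from cohort means. Both genes of a pair are read from the same arrays and share their scaling, so these values carry no test. Over the 45 pairs r ran from -0.31 to 0.60 with a median of 0.18. The highest were Lyl1 with Spi1 (0.60), Gata2 with Erg (0.59), Gata2 with Runx1 (0.58), Lyl1 with Hhex (0.52) and Hhex with Spi1 (0.52). With the array set removed as well, Gata2 with Runx1 was 0.44 and the other 4 lay between 0.50 and 0.62. The lowest was Runx1 with Tal1 (-0.31), where Tal1 lay below the array median throughout.

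The genes most like each member over the leukaemias, outside the 10, were measured in the same way. Lyl1 was most like Psenen (r = 0.86), Spi1 like Bin3 (0.86), Fli1 like Ppp1cb (0.85), Hhex like Mob4 (0.82) and Runx1 like Usp37 (0.81). Erg was most like Egln3 (0.79), Lmo2 like Crlf3 (0.77), Tal1 like Plaat3 (0.67) and Mecom 1422295_at like Pcdh19 (0.62). With the array set removed, Runx1 with Usp37 was 0.70 and the other 8 lay between 0.58 and 0.93.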

How the data were processed

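Per the labels, RNA of cryopreserved marrow cells was extracted with Trizol, labelled with biotin and hybridised to Affymetrix arrays, 1 per mouse. The deposited values are 1 linear intensity per probe set, scaled by the authors: with 2% trimmed from either end, every array had the same mean intensity. The sources used here do not give the software. The number of arrays limits the precision. All 4 normal samples enter every comparison with normal marrow. Nothing in the labels names litters or batches. With 1 array per mouse, p-values measure the spread between these mice and between their arrays together. The main fit holds no term for the array sets.

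Levels are log2(intensity + 46.1), with the pseudocount set at percentile 25 over the whole table. Array medians spanned 0.537, above a limit of 0.5, so arrays were shifted to a common median. Probe sets above their array's median on at least 4 arrays were kept. The 6 group means were fitted with limma 3.58.1 (R 4.3.3), with 32 residual degrees of freedom, and adjusted p under 0.05 was called. Fold changes are ratios on this scale, which understates changes of dim genes. Symbols are those of the platform annotation, of which 34958 probe sets carry exactly 1; promoters are from a table of RefSeq sequences (GRCm38.p6), in which those of Gata2, Runx1, Lyl1, Tal1, Erg, Mecom and Hhex were searched. The fit was checked on simulated data.

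The members, lists and tests were chosen with earlier results of these data known. Named genes are the 10 members, from each list up to 4 called genes with the largest change, and for likeness the genes with the highest r. Id1, Etv6 and Runx3 were named beside them as partners or relatives that rose. The array sets were found after seeing the data, as the split of the leukaemias that most probe sets show by their widest gap (11 of 120 with a gap over 0.5 and at least 10 leukaemias a side; the next split had 3). An earlier rule, the widest gap along a principal component, was dropped.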

Additional observations from a re-analysis of the deposited data

Results flagged for a closer look

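Among 108 groups of values (18 probe sets in 6 groups), 9 had 1 mouse standing far from the rest of its group by Dixon's test, which chance gives in about 5% of groups. MLL-ENL_742 was high on Gata2 1450333_a_at at 11.21 (the other 6 at 9.32 to 9.86), and normal mouse 1 was low there at 9.64 (others 10.01 to 10.05). On Runx1 1440878_at MLL-AF1p_803 was low at 7.37 (others 8.12 to 8.73) and normal mouse 3 high at 8.62 (others 7.99 to 8.09). On Runx1 1452531_at MLL-AF1p_801 was low at 7.50 (others 8.61 to 9.23). On Lmo2 MLL-AF9_307 was low at 13.05 (others 13.60 to 13.74) and MLL-ENL_774 was low at 12.81 (others 13.36 to 13.73). On Mecom 1422295_at MLL-AF9_301 was low at 6.29 (others 7.87 to 8.40), and on Mecom 1438325_at MLL-GAS7_407 was high at 7.60 (others 5.69 to 5.90).

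The effects of the 5 fusions against normal marrow differed for Lmo2 (adjusted p = 0.00365), Erg (0.00662) and Gata2 1450333_a_at (0.0178), by limma's F test.

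The 2 probe sets below the filter gave cohort means above the highest normal sample. For Erg 1425370_a_at these were 6.06 in MLL-AF10, 6.20 in MLL-AF9 and 6.24 in MLL-ENL, against 5.87 to 6.05 in normal marrow. For Mecom 1423011_at they were 6.43 in MLL-AF1p, 6.87 in MLL-GAS7 and 6.91 in MLL-AF9, against 5.75 to 6.31. Nearly all of these values lie below the array medians and none was tested.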

How the results depend on the processing

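Of the 10 genes, 6 were called higher and 1 lower in leukaemia minus normal, where 28.3% and 12.5% of all 13333 genes were. The higher count ran from 4 to 6 and the lower count stayed at 1 when single arrays were left out. A filter of 19 arrays removed Tal1 and so left 0 lower. The summed cohort calls against normal (28) ran from 26 to 30 and the F-test calls (3) from 3 to 3 without single arrays; calls of a cohort against the other 4 (3) ran from 2 to 5. In sets 1 and 2 of the leukaemia arrays alone (chosen after seeing the data, with fewer mice) the F test called 0 and 0 genes, and the comparison with the other 4 cohorts 1 and 0. Over all probe sets, 10713 were called in leukaemia minus normal (8475 to 11273 without single arrays) and 1821 by the F test (1400 to 2628). With 1 probe set per gene these were 5588 and 1078 and with the mean of a gene's probe sets 5432 and 1023, since fewer features were tested. The F test called 3295 with array weights, for which the cause was not tested, and 244 and 423 within sets 1 and 2. Of the calls 67.3% were higher, 53.6% as deposited and 59.1% after quantile normalisation, and the median change of all probe sets was 0.14, 0.01 and 0.08. Fli1 1433512_at turned to -0.07 as deposited, -0.12 after quantile normalisation and ran from -0.05 (without normal mouse 1) to 0.127 when single arrays were left out. Mecom 1422295_at turned to 0.64 with the mean of its probe sets, to 0.041 in set 2, and ran from -0.565 to 0.161 when single arrays were left out, above 0 without normal mouse 2, 3 or 4, and Runx1 1452530_a_at turned to 0.084 in set 2; none of these values was called. No paired analysis was possible because the mouse numbers of the cohorts are not shared. Dim probe sets, Tal1 in leukaemia and Mecom above all, have the least certain size of change, and 4 normal mice limit every comparison with normal marrow.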
